A study of Mus musculus with 6 samples.

Results

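The cells described here are endothelial cells of mice at postnatal day 10 (P10), from 1 library with Ccm3 deleted and 1 control library. A barcode was kept if it had 500 genes or more and if mitochondrial genes gave no more than 10% of its UMIs (unique molecular identifiers, the count of captured RNA molecules). A kept cell was called endothelial if it had a UMI of at least 3 of 6 genes, Pecam1, Cldn5, Cdh5, Flt1, Esam and Egfl7. This gave 6557 of the 14165 endothelial cells of the whole series, 3540 in the control library and 3017 in the library with the deletion. Genes were compared across these cells by their level, as UMIs per 1000000 endothelial UMIs (CPM), and by the share of cells with a UMI.

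The series holds 6 single-cell RNA libraries in 6 groups, 1 library each. The control library (WT) carries Mfsd2a-CreERT2 alone, and the other (KO) carries Mfsd2a-CreERT2 with Pdcd10fl/fl, the floxed gene that encodes Ccm3. Both received tamoxifen at P1 and were harvested at P10, so both share the Cre driver and the tamoxifen. A further pair with the same genotypes and tamoxifen day was harvested at P6 and is set beside the P10 pair. The driver is named for Mfsd2a, a gene of brain endothelium, so deletion should be limited to cells with the driver active when tamoxifen was given. Which cells had the deletion was not measured. The number of animals in each library is not given in the sources used here. The tissue label reads retina while the series describes brain endothelium, and retinal markers summed to 5.93 CPM in WT and 5.04 CPM in KO, with Rcvrn, Pde6b and Rpe65 at 0 UMIs in both.

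With 1 library per group there were no replicates, so no comparison carries a test or a p-value. A gene counts as different when its levels were at least 2-fold apart and the higher library had at least 20 CPM and 30 UMIs of it. A gene under 20 CPM in 1 library is therefore measured only through the other library, which fixes the direction of its ratio. This holds for the counts and medians of all gene lists below. Intervals in parentheses are 95% intervals for counting error only, and they do not cover differences between animals. Of 5837 genes with enough UMIs, 160 (2.74%) were at least 2-fold higher in KO and 89 (1.52%) at least 2-fold lower, 4.27% in all. By the share of thinned cells with a UMI, described below, 88 of 5040 genes (1.75%) were at least 2-fold higher and 42 (0.833%) lower. The median log2 ratio over all of them was 0.06, and the 5th and 95th percentiles were -0.62 and 0.77.

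Ccm3, the product of Pdcd10, is a small adaptor protein that binds Ccm2 and, in a separate complex, the Stk24 and Stk25 kinases. Loss of a Ccm protein in brain endothelium leads to cerebral cavernous malformations, clusters of dilated, leaky capillaries and venules. Brain endothelium normally forms the blood-brain barrier: sealed junctions, many nutrient transporters, few caveolae and no fenestrae, a state held in part by Wnt signals from the surrounding tissue.

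Both libraries were almost wholly endothelial: 98.1% of kept cells in WT and 97.2% in KO met the rule. A list of 12 endothelial genes outside the rule summed to 9816 CPM in WT and 8939 CPM in KO. KO cells were the deeper ones, with a median of 6401 UMIs against 4871, and 13 barcodes occurred in both libraries. Shares of cells were therefore taken after thinning each cell to 2000 UMIs, which left out 375 WT and 228 KO cells below that depth. Pericyte markers summed to 1081 CPM in WT and 566 CPM in KO endothelial cells, with all 10 present in both, and thinned cells with at least 2 of them were 13.2% and 7.60%. Red-cell genes summed to 15544 and 4455 CPM. The part of either in the results was not tested beyond leaving such cells out, which is given where it mattered. Astrocyte markers (36.3 and 31.5 CPM), microglia or macrophage markers (70.8 and 69.4) and leukocyte markers (2.56 and 3.12, with Cd3e, Ly6g and Nkg7 at 0 in both) were closer to level, as were fibroblast markers (27.5 and 26.5). Smooth muscle markers summed to 26.2 and 13.2 CPM with Cnn1 at 0 in KO, neuron markers to 68.9 and 43.0 CPM, and cerebellar granule neuron markers to 17.3 and 7.98 CPM with Neurod1, Gabra6 and Atoh1 at 0 in both. Oligodendrocyte markers summed to 16.5 and 24.1 CPM with Mog at 0 in both. The part of these lists in the results was not tested. Only 32 kept cells of the pair had none of the 6 endothelial genes, too few to measure how often free RNA alone gives a UMI.

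Pdcd10 itself (chr3:75516490-75556856, minus strand, mm10) stood at 102 CPM (98.1 to 107) in WT and 58.2 CPM (55.1 to 61.3) in KO. Its level in KO was 0.568 times that in WT (0.530 to 0.608). Thinned cells with a Pdcd10 UMI made up 18.8% of WT and 9.54% of KO. The P6 pair showed nearly the same levels, 104 and 58.4 CPM. These are counts over the whole gene, and which exons are floxed is not given in the sources used here, so a shortened transcript could still be counted. None of 19 measured genes within 10 Mb of Pdcd10 was 2-fold apart. On the list of Ccm complex genes and partners, Pdcd10 included, 0 of 17 measured members were 2-fold apart, with Krit1 at 51.4 and 62.0 CPM and Stk25, a Ccm3-binding kinase, lowest in ratio at 133 and 72.3 CPM. Klf2, a flow-responsive transcription factor known to be raised in Ccm mutant endothelium, went from 1206 CPM (1191 to 1221) in WT to 2203 CPM (2184 to 2222) in KO, which is 1.83-fold. Klf4 stood at 1108 and 1447 CPM, and 0 of 13 measured members of that axis passed 2-fold. With 4.27% of all measured genes past 2-fold, the counts of 0 in this paragraph are near the share over all genes.

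Genes were ranked by the size of their ratio, after unnamed gene models, haemoglobin genes and other kinds given under processing were skipped. The 15 highest in KO against WT were Ccl5, Phlda3, Plvap, Rsad2, Ccdc184, Ifit1, S100a6, S100a10, Ltc4s, Gdf15, Upp1, Gngt2, Oasl2, Cdh13 and Usp18. Their log2 ratios ran from 9.10 down to 2.46, and Ackr1 at 2.40 was the next gene of the ranking. The 15 lowest included Ptgds, Ddc, Alas2, Hmcn1, Spock2, Selenop, Mfap2, Cramp1l, Cdkn2b, Slc7a8, Mfsd2a, Tmcc3, Pfkp and Synm. Their log2 ratios ran from -5.87 to -1.54, and Bpgm at -1.51 was the next of the ranking. Skipped genes with ratios inside these ranges include Gm8797 (3.91) and Gm10260 (-5.49). These ratios chose the genes, so they describe the pair and support nothing further. The plot of levels shows that genes higher in KO were scarce in WT, all 15 under 20 CPM. Lower genes have at least 20 CPM in WT by the level minimum itself, and Selenop reached 3377 CPM.

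**Figure D1:**
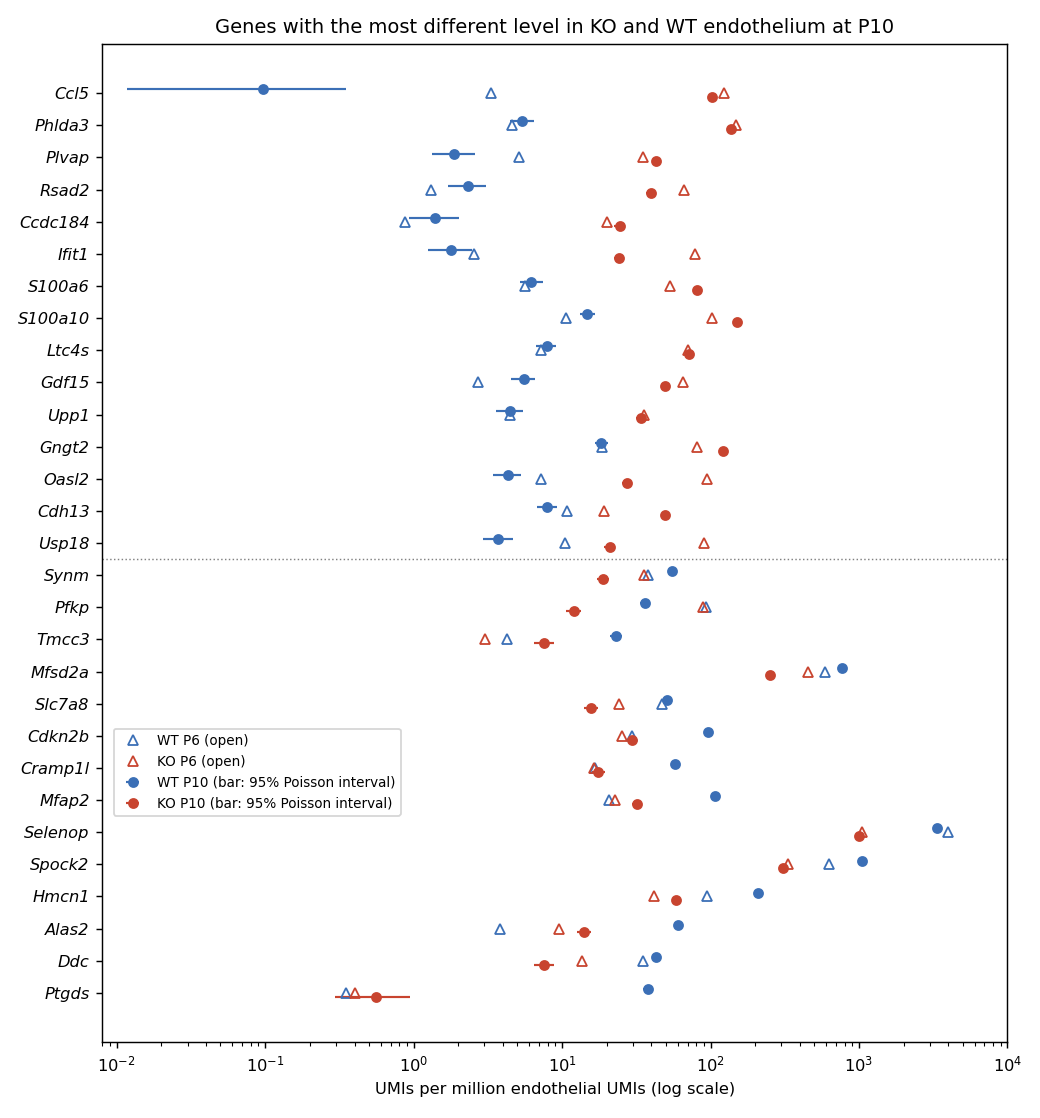
Level of the 15 highest genes of the ranking and 14 of its 15 lowest, as UMIs per 1000000 endothelial UMIs on a log axis. Filled circles are the P10 libraries with 95% Poisson intervals, open triangles the P6 libraries, and the dotted line parts higher from lower genes. Ccl5 lies at 0.0964 CPM in WT P10 and 102 CPM in KO P10, while Selenop lies at 3377 and 995 CPM.

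Interferon-stimulated genes were the group that stood highest in KO. Of 17 measured members of the list, 13 were at least 2-fold higher and 0 lower, and the median log2 ratio was 1.81. All 17 had a ratio above 0. For members under 20 CPM in WT, such as Ifit1, Rsad2, Usp18, Oasl2, Irf7 and Irf9, that direction was fixed by the level minimum. Interferon signals through a complex of transcription factors that includes Irf9, which binds a short repeat in the promoters of antiviral genes and switches them on.

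Rsad2 encodes viperin, an antiviral enzyme. It stood at 2.31 CPM (1.71 to 3.07) in WT and 39.5 CPM (37.0 to 42.1) in KO, 17.1-fold higher (12.8 to 23.3). Ifit1, which binds foreign RNA, stood at 1.78 CPM (1.26 to 2.46) and 24.2 CPM (22.2 to 26.3), 13.6-fold higher (9.72 to 19.5). The ubiquitin-like protein gene Isg15 went from 21.1 to 110 CPM and Usp18, whose enzyme removes Isg15 from proteins, from 3.71 to 20.9 CPM. Both genes of this conjugation system were higher. Among the regulators, Irf7 was at 8.92 and 44.4 CPM, while Irf9 (17.4 and 33.8 CPM) came just short of 2-fold. The abundant membrane proteins of the list moved by less in ratio but by more in level: Ifitm3 was at 313 and 983 CPM and Bst2, which tethers virus particles, at 88.6 and 311 CPM. Ifi27, at 67.8 and 75.9 CPM, was the member nearest to no difference. Mx1 and Mx2 were on the list and were not analysed here.

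The promoters of these genes are shown because the binding site of the interferon factors can be read in them. The core of that site, GAAA followed by any 2 bases and GAAA again, was searched on both strands from 250 bases before to 50 after each start in RefSeq's promoter table for GRCm38.p6, and overlapping matches were counted singly. It occurred in 8 of 13 (61.5%) measured list genes that have an entry, in 15 of 124 (12.1%) genes at least 2-fold higher in KO, in 5 of 72 (6.94%) genes at least 2-fold lower, and in 3.99% of all 27025 genes with an entry (3.44% of all 32851 windows). The 250 bases before the start are printed 5′ to 3′ on the gene's strand for Isg15 (chr4:156200819-156201068, minus), Ifit1 (chr19:34640639-34640888, plus), Bst2 (chr8:71537473-71537722, minus) and Rsad2 (chr12:26456453-26456702, minus), with matches in capitals.
Isg15: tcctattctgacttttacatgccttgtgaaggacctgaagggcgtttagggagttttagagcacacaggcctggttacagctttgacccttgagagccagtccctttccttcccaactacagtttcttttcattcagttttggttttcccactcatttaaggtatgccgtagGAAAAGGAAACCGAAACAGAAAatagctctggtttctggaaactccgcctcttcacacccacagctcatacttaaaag
Ifit1: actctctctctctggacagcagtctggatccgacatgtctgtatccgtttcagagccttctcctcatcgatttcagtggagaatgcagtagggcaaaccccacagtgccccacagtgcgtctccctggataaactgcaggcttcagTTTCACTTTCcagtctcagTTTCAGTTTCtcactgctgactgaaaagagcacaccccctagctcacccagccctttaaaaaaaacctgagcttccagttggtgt
Bst2: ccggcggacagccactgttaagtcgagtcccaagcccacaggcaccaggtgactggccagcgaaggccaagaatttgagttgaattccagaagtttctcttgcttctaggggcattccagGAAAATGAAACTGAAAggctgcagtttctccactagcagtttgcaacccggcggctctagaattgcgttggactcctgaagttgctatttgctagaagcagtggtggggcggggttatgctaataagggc
Rsad2: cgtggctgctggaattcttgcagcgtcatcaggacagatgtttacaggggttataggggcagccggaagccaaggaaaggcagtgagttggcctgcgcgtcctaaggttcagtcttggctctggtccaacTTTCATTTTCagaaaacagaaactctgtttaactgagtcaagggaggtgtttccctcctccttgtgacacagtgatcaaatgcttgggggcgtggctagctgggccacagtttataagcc
Counting the last base before the start as -1, the first match began at -78 in Isg15, -104 in Ifit1, -130 in Bst2 and -120 in Rsad2. Isg15 has 3 overlapping matches over 22 bases, Bst2 has 2 over 16 bases, Ifit1 has 2 apart from each other on the opposite strand, and Rsad2 has 1 on the opposite strand. A match is a description of the sequence and not a measured binding site.

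The programme was uneven among KO cells. In thinned cells, UMIs of at least 3 list members were found in 7.61% of WT cells (6.71 to 8.59) and 33.3% of KO cells (31.6 to 35.1). At least 5 members were found in 0.600% and 9.61%. At least 10 were found in 0 of 3165 WT cells, which at 2000 UMIs a cell allows a share of up to 0.0948% by the floor of 3 counts, and in 1.22% of KO cells (0.113% and 8.58% without thinning). Without thinning the shares with at least 3 members were 34.4% and 73.0%. The 31 cells that made up the top 1% for Rsad2 held 75.7% of its KO UMIs, and 19 of the same cells were among the top 31 for Ifit1. Top cells were picked on unthinned UMIs, and those of Rsad2 had a median of 12005 UMIs against 6357 in the other KO cells. The part of depth in this overlap was not tested.

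Class I MHC, the interferon-responsive machinery that presents peptides to T cells, was higher in part. Of 15 measured members, 3 were at least 2-fold higher and 0 lower, with a median log2 ratio of 0.47. B2m, the light chain of every class I molecule, was at 660 and 1428 CPM, the peptide pump gene Tap1 at 9.40 and 29.96 CPM, and the immunoproteasome gene Psmb8 at 20.3 and 59.1 CPM. None of the 5 measured heavy chains was 2-fold apart: H2-K1 was at 275 and 214 CPM, H2-D1 at 802 and 789 CPM, H2-T23 at 34.48 and 34.53 CPM, H2-T22 at 41.8 and 57.0 CPM and H2-Q4 at 24.5 and 33.97 CPM. H2 genes are close copies of each other, so the split of reads among them is uncertain.

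Ccl5 had the largest ratio of all genes in the pair, and it rested on few cells. It encodes a chemokine for T cells and monocytes. WT held 2 UMIs (0.0964 CPM, 0.0117 to 0.348) and KO 2399 (102 CPM, 98.3 to 107), a ratio of 1062 with a counting interval of 294 to 8772. Thinned cells with a UMI were 0 of 3165 in WT and 1.33% in KO (0.0565% and 2.68% without thinning). In KO, 97.9% of Ccl5 UMIs lay in 31 cells, 14.9% of them in a single cell. Those 31 cells were otherwise endothelial, with a median of 6 of the 6 markers, Cldn5 at 6122 CPM against 5888 CPM in the other KO cells, 0 Ptprc UMIs and a leukocyte marker in 2 cells. Their interferon list summed to 7109 CPM against 1941 CPM, and Rsad2 to 1148 against 24.9 CPM. The cells were picked for Ccl5, so its own level there is no result.

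Of the other chemokines and their receptors, 3 of 10 measured were at least 2-fold higher, Ccl5 included, and 0 lower. Ccl2, which draws monocytes, was at 17.4 and 51.9 CPM, and 31 cells held 87.8% of its KO UMIs. Its log2 ratio of 1.57 was 6.17 without cells holding a pericyte marker UMI. Ackr1, the chemokine-binding receptor of venular endothelium, was at 9.35 CPM (8.08 to 10.8) and 49.9 CPM (47.1 to 52.8). Cxcl10 was at 36.9 and 69.7 CPM and Cxcl12 at 483 and 423 CPM. Of 7 measured leukocyte adhesion genes only Vcam1 passed, at 13.4 CPM (11.8 to 15.03) in WT and 54.8 CPM (51.8 to 57.8) in KO, while Icam1 was at 1306 and 1411 CPM. In the Vcam1 counts, venous-marker cells differed most: 5.40 CPM in WT and 61.3 CPM in KO, against 206 and 264 CPM in arterial-marker cells.

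Targets of p53, the transcription factor of the DNA damage and ribosome stress response, were a further group. Of 18 measured, 9 were at least 2-fold higher and 0 lower, with a median log2 ratio of 0.96. Phlda3, Gdf15, Ephx1, Perp, Zmat3, Ccng1 and Aen were under 20 CPM in WT and measured only through KO. Their direction was fixed by the level minimum, which raises the count and the median. Phlda3, which holds back Akt by competing for membrane lipids, was the highest (chr1:135766119-135769136, plus strand): 5.40 CPM (4.45 to 6.50) in WT and 137 CPM (132 to 142) in KO, 25.3-fold (20.99 to 30.9). It was spread over many cells, in 0.853% of thinned WT and 18.9% of thinned KO cells (2.66% and 38.8% without thinning), and 31 cells held 13.03% of its KO UMIs.

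Gdf15, a stress cytokine of the TGF-beta family, was at 5.50 CPM (4.53 to 6.60) and 49.0 CPM (46.2 to 52.0), and 31 cells held 49.8% of its KO UMIs. The cyclin-like gene Ccng1 was at 12.5 and 63.0 CPM and the nuclease gene Aen at 12.9 and 45.2 CPM. Ephx1 was at 6.41 and 30.3 CPM, Perp at 7.67 and 22.7 CPM, and Zmat3 at 12.1 and 34.8 CPM. The pro-apoptotic gene Bbc3 was at 38.4 and 99.4 CPM and Rps27l at 253 and 571 CPM. Not all targets followed: Cdkn1a, the cell cycle inhibitor most used as a p53 readout, was at 1474 CPM (1457 to 1490) and 1525 CPM (1510 to 1541), Mdm2 at 91.4 and 154 CPM, and Pmaip1 was lower at 369 and 246 CPM. The p53 half-site was found in 7 of 14 (50%) measured list genes with a promoter entry, against 9.55% of all genes with an entry. These were Aen, Ccng1 and Rps27l, which were past 2-fold, and Bax, Cdkn1a, Ei24 and Mdm2, which were not. Among genes at least 2-fold higher in KO the share was 16.9%, and among those at least 2-fold lower 11.1%. The 250 bases before the start of Ccng1 (chr11:40755287-40755536, minus strand, GRCm38.p6) show 1 such half-site in capitals.
Ccng1: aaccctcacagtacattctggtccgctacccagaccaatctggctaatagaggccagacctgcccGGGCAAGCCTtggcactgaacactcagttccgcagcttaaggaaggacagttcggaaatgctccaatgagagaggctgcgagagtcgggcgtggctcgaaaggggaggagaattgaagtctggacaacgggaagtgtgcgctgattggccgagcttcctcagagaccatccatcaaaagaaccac
The pattern searched reads the same on both strands. Phlda3 and Gdf15 have entries with no match in this window.

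S100 and annexin genes, calcium-binding proteins that act at membranes, were higher in 5 of 14 measured cases and lower in 0, with a median log2 ratio of 0.67. S100a10 was at 14.8 CPM (13.2 to 16.6) and 150 CPM (145 to 155), and its binding partner Anxa2, with which it forms a surface receptor for plasminogen, at 158 and 562 CPM. S100a6 was at 6.22 CPM (5.19 to 7.39) and 80.9 CPM (77.3 to 84.6), Anxa1 at 16.9 and 64.7 CPM, and S100a11 at 254 and 540 CPM. S100a6 and S100a10 shared 10 of their top 31 KO cells. The S100a6 cells, picked on unthinned UMIs, had a median of 13926 UMIs against 6355 in the other KO cells. The part of depth in this overlap was not tested. In arterial-marker cells S100a6 was the only 1 of the 15 highest genes to be lower in KO, at 35.7 CPM in WT and 23.7 CPM in KO. This rests on 30 and 25 UMIs, and the counting interval of the ratio, 0.374 to 1.17, includes 1. The other 14 kept their direction in those cells, but only 9 of the 15 were past 2-fold there. Of the 15 lowest genes, 15 kept their direction in arterial-marker cells and 8 were past 2-fold.

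Of the remaining genes with the largest ratios, Ltc4s, which makes the leukotriene that opens venules, was at 7.86 CPM (6.70 to 9.16) and 71.5 CPM (68.1 to 75.04). Upp1, a uridine-degrading enzyme, was at 4.44 CPM (3.58 to 5.44) and 33.8 CPM (31.5 to 36.3). Cdh13, a cadherin anchored by a lipid rather than a membrane span, was at 7.96 CPM (6.79 to 9.27) and 49.2 CPM (46.4 to 52.1). Each of these was spread over more than a few cells, with 21.96%, 23.1% and 21.6% of KO UMIs in the top 31. Ccdc184 was at 1.40 CPM (0.936 to 2.01) and 24.4 CPM (22.4 to 26.5). Gngt2, a G protein gamma subunit, was at 18.4 CPM (16.6 to 20.4) and 121 CPM (116 to 125) and was found in 3.22% of thinned WT and 20.8% of thinned KO cells (8.79% and 46.2% without thinning). The gene overlaps its neighbour Abi3 in the annotation, and whether counting used strand is not given in the sources used here, so its level is uncertain.

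**Figure D2:**
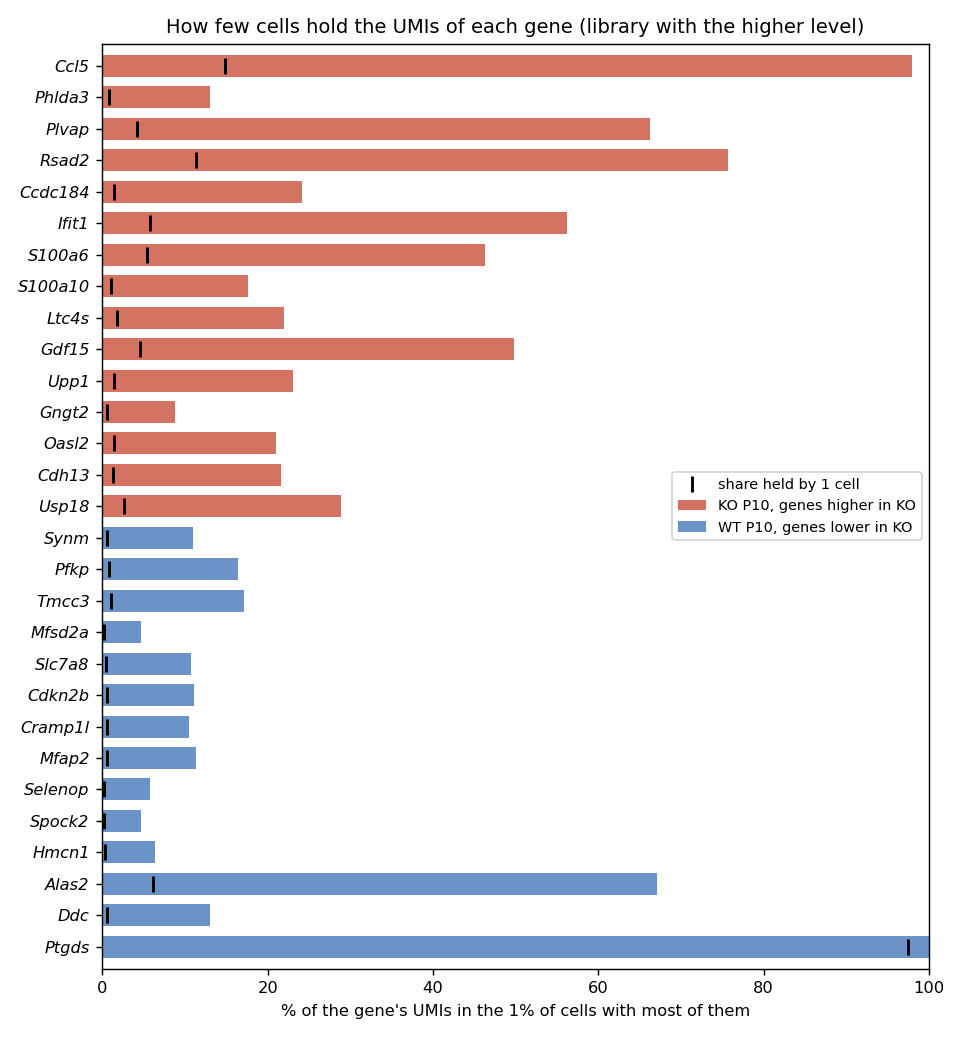
Share of each gene's UMIs held by the 1% of endothelial cells with most of them (bars) and by a single cell (black ticks), in KO P10 for genes higher in KO and in WT P10 for genes lower in KO. Ccl5 (97.9%), Rsad2 (75.7%) and Plvap (66.2%) rested on 31 KO cells, Gngt2 (8.84%) and Phlda3 (13.03%) did not, and 97.4% of WT Ptgds UMIs came from 1 cell.

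Some genes of vessel leak and sprouting were higher in KO, Plvap mostly in a small set of cells. Plvap builds the diaphragms of fenestrae and caveolae and is normally silent in barrier endothelium. It was at 1.88 CPM (1.34 to 2.57) in WT and 42.7 CPM (40.1 to 45.5) in KO, 22.7-fold (16.5 to 32.1), in 0.411% and 2.69% of thinned cells (0.847% and 4.71% without thinning). The top 31 KO cells held 66.2% of it. Compared with the other KO cells they had Igfbp3 at 4489 against 117 CPM and Esm1 at 609 against 58.2 CPM, but Cldn5 at only 977 against 5929 CPM and Slc2a1, the glucose transporter of the barrier, at 112 against 1055 CPM. Mfsd2a gave 1 UMI in them. Apln stood at 106 against 1015 CPM and Phlda3 at 11.2 against 138 CPM there. Of these cells, 0 were among the top 31 for Ccl5, Rsad2 or Phlda3. Unrelated sets of 31 out of 3017 cells often share none, so this 0 does not set the cells apart. The interferon list of the Plvap cells summed to 3713 against 1995 CPM, with Isg15 at 341 against 109 CPM. Ifit1 was at 50.3 against 24.0 CPM, from 9 UMIs in these cells. Rsad2 went the other way, at 27.9 against 39.6 CPM, from 5 UMIs in these cells. Pdcd10 was at 61.4 against 58.1 CPM.

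Of 14 measured caveolae and leak genes, 4 were at least 2-fold higher and 0 lower, with a median log2 ratio of 0.66. Besides Plvap they were Igfbp3 (33.7 and 151 CPM), the tip cell proteoglycan gene Esm1 (14.8 and 62.4 CPM) and Cav1, the coat protein of caveolae, at 171 CPM (166 to 177) and 355 CPM (347 to 363). Without cells holding a Plvap UMI the log2 ratio of Igfbp3 went from 2.16 to 1.33 and that of Esm1 from 2.07 to 1.71. The log2 ratio of Cav1, 1.05, was 0.999 without pericyte-marker cells and 0.978 without cells holding at least 2 markers of another type, just under 2-fold. Cav1 was spread widely, in 28.0% of thinned WT and 46.4% of thinned KO cells (50.8% and 77.2% without thinning). Of 20 measured tip cell and sprouting genes, 4 were higher and 0 lower: Apln, the ligand of sprouting tips, at 413 and 1008 CPM, Esm1, Ramp3 at 12.3 and 45.5 CPM, and the growth factor gene Pgf at 12.6 and 38.3 CPM. Angpt2, the destabilising ligand of Tek, was at 176 and 220 CPM, and the receptor Kdr at 447 and 387 CPM, both within 2-fold. Ly6a, which marks some endothelial progenitors, was at 266 CPM (259 to 273) and 1084 CPM (1071 to 1098), while Prom1, on the same list of 7 measured progenitor genes, was lower at 115 and 57.2 CPM. These were the 2 members of that list past 2-fold.

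Cells with mitotic markers were more frequent in KO. Thinned cells with UMIs of at least 3 of 12 mitotic markers made up 2.02% of WT (1.56 to 2.57) and 6.88% of KO (5.97 to 7.89), a ratio of 3.40. With at least 1 marker the shares were 13.1% and 19.3%, a ratio of 1.47. Without thinning the shares were 3.81% and 12.3%. Of 13 measured G2 and mitosis genes, 11 were at least 2-fold higher and 0 lower, with a median log2 ratio of 1.63. Cyclin B1 (Ccnb1) was at 7.04 and 28.3 CPM, Cdc20, which starts anaphase, at 11.7 and 46.1 CPM, and Birc5 at 19.2 and 70.4 CPM. Of 12 measured S phase genes, 3 were higher (Rrm2, Tyms and Mcm5) and 0 lower, with a median of 0.85. Several mitotic markers are also on the G2 list, so the list and the share are 1 observation. The inhibitor of Cdk4 and Cdk6, Cdkn2b, was lower, at 96.5 CPM (92.4 to 101) in WT and 29.5 CPM (27.3 to 31.8) in KO, in 17.7% and 4.91% of thinned cells (33.1% and 14.4% without thinning).

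Barrier transporters made up the group that stood lowest in KO. Of 30 measured, 5 were at least 2-fold lower and 0 higher, and the median log2 ratio was -0.54; only 5 of the 30 had a ratio above 0. Mfsd2a (chr4:122946850-122961188, minus strand) carries the omega-3 lipid DHA and restrains transcytosis. It was at 767 CPM (755 to 779) in WT and 250 CPM (243 to 256) in KO, 3.07-fold lower (2.98 to 3.17). Its UMIs were found in 69.4% of thinned WT and 35.0% of thinned KO cells (86.0% and 61.0% without thinning). Mfsd2a also names the Cre driver, which both libraries carry.

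The other transporters past 2-fold were the lactate and ketone carrier Slc16a1 at 1347 and 654 CPM (log2 ratio -1.04, and -0.969 without mitotic cells), the organic anion carriers Slc22a8 at 574 and 262 CPM and Slco1a4 at 466 and 205 CPM, and the efflux pump Abcc4 at 41.2 and 19.7 CPM. The large neutral amino acid carrier Slc7a5 was at 1004 and 583 CPM and its partner Slc3a2 at 1528 and 986 CPM. Slc7a8, a second light chain for Slc3a2 that was not on the list, was at 51.2 CPM (48.1 to 54.3) and 15.7 CPM (14.1 to 17.4). The drug pump Abcb1a was at 158 and 96.2 CPM. The glucose transporter Slc2a1 did not follow, at 944 and 1048 CPM. UMIs of at least 10 list members were found in 78.7% of thinned WT and 52.6% of thinned KO cells (94.5% and 86.5% without thinning).

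Junction genes, the other arm of the barrier, were close to level: 0 of 15 measured passed either way, with a median log2 ratio of -0.05. Cldn5, the main claudin of brain endothelium and a gene of the endothelial rule, was at 5524 and 5891 CPM, Ocln at 108 and 76.4 CPM and Tjp1 at 119 and 74.5 CPM. Cdh5 and Esam, also on the junction list, belong to the endothelial rule too. Of 14 measured Wnt targets and receptors, 2 were lower and 0 higher, with a median of -0.32: Apcdd1 at 529 and 244 CPM and Notum at 85.4 and 37.98 CPM, both induced by and acting against Wnt signals. Axin2 was at 33.9 and 18.5 CPM and Lef1 at 92.3 and 76.3 CPM. Of 24 endothelial transcription factors 0 passed, with a median of -0.26 and 4 of 24 ratios above 0. Foxq1 was at 530 and 346 CPM and Erg at 118 and 85.7 CPM. Of 11 measured Notch genes 0 passed, and Hes1 was at 1370 and 828 CPM. Over all measured genes 4.27% were past 2-fold, so a count of 0 in lists this short is near that share.

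**Figure D3:**
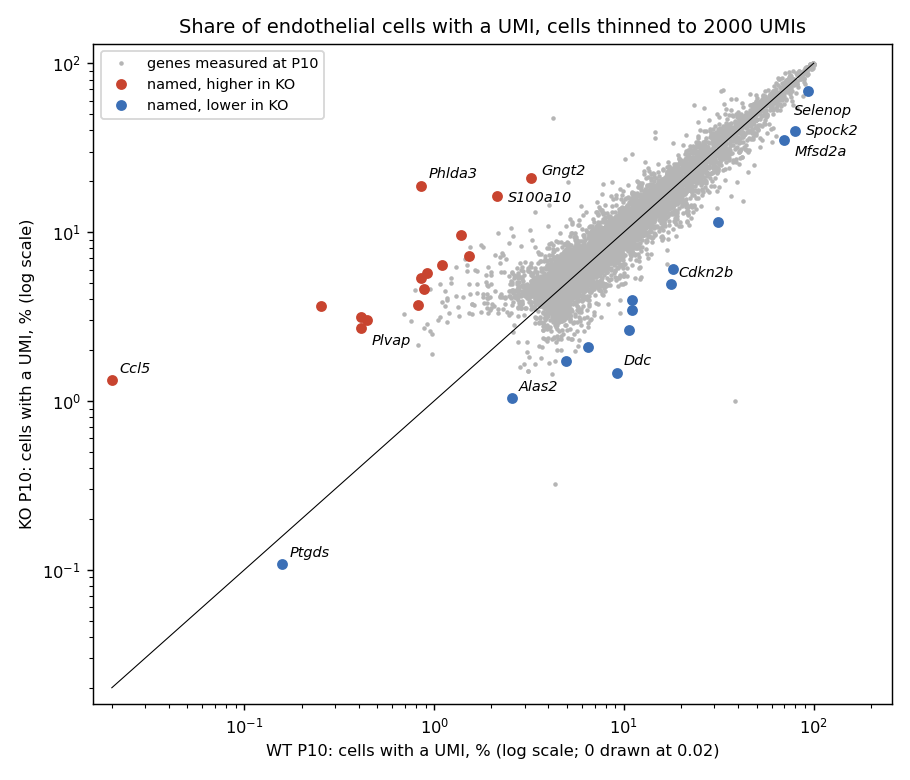
Share of endothelial cells with at least 1 UMI of each measured gene in WT P10 (horizontal) and KO P10 (vertical), in percent on log axes after thinning to 2000 UMIs, with the line of equal shares; a share of 0 is drawn at 0.02. Phlda3 lies far above the line (0.853% and 18.9%), while Mfsd2a (69.4% and 35.0%) and Ddc (9.16% and 1.47%) lie below it.

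Further genes at the lower end include secreted proteins and enzymes. Selenop, the carrier of selenium in plasma, was one of the most abundant messages in WT: 3377 CPM (3352 to 3402) against 995 CPM (982 to 1008) in KO, 3.39-fold lower (3.34 to 3.45). Its UMIs were found in 93.3% and 68.0% of thinned cells (98.0% and 88.5% without thinning). Trf, the iron carrier transferrin, was at 219 and 97.1 CPM. Selenop and Trf were the 2 of 15 measured iron and selenium genes past 2-fold, with 0 higher, against 1.52% lower among all measured genes. The ferritin chain Fth1 was at 7527 and 4670 CPM.

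Spock2, a secreted heparan sulfate proteoglycan, was at 1045 CPM (1031 to 1059) and 306 CPM (299 to 313). Hmcn1, an extracellular matrix protein, was at 208 CPM (202 to 214) and 58.4 CPM (55.3 to 61.6). They were the 2 of 20 measured basement membrane genes that were 2-fold lower, with 0 higher, against 1.52% lower among all measured genes. Col4a1 was at 544 and 611 CPM. Mfap2, a protein of elastic microfibrils, was at 107 CPM (102 to 111) and 31.8 CPM (29.6 to 34.2). Ddc, which makes dopamine and serotonin from their precursors and forms part of the enzymatic barrier, was at 43.1 CPM (40.3 to 46.0) and 7.55 CPM (6.48 to 8.75), 5.71-fold lower (4.85 to 6.74). Its UMIs were in 9.16% and 1.47% of thinned cells (19.5% and 5.10% without thinning). The glycolytic enzyme Pfkp was at 36.0 and 11.99 CPM, the only 1 of 19 measured glycolysis and hypoxia genes past 2-fold. Over all measured genes 4.27% were past 2-fold, so this count of 1 is near that share. Synm, an intermediate filament protein, was at 55.0 and 18.9 CPM, Cramp1l at 57.6 and 17.5 CPM, and Tmcc3 was 3.04-fold lower (2.56 to 3.64).

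A pair of the lowest genes moved with other cells. Ptgds, a prostaglandin D synthase, had 783 UMIs in WT and 13 in KO (37.8 and 0.555 CPM), and 97.4% of the WT UMIs came from 1 cell. Without the cell with most Ptgds UMIs in each library its log2 ratio went from -5.87 to -1.29, and without cells holding a pericyte marker UMI to -0.76. Alas2, the first enzyme of heme synthesis in red cells, was at 60.2 and 14.1 CPM, beside the red-cell genes that summed to 15544 and 4455 CPM, and without cells holding at least 2 markers of another cell type its log2 ratio went from -2.09 to -0.12. Without pericyte-marker cells, Alas2 and the other 13 of the 15 lowest genes stayed at least 2-fold lower.

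Arterial and venous markers were also compared. Thinned cells with at least 3 of 8 arterial markers were 3.16% of WT (2.58 to 3.83) and 3.84% of KO (3.15 to 4.62), and with at least 3 of 8 venous markers 8.50% (7.55 to 9.53) and 9.07% (8.03 to 10.2). Without thinning, once mitotic cells were set aside, 172 WT and 180 KO cells were classed as arterial-marker and 1039 and 894 as venous-marker. These classes are ranges of a marker count rather than types: 1269 WT and 1023 KO cells lay 1 marker below the venous threshold, and 265 and 208 below the arterial one. Of 14 measured arterial genes, Edn1, the vasoconstrictor endothelin, was lower at 241 and 118 CPM and 0 were higher. That count is near the 4.27% of all measured genes past 2-fold. Of 9 measured genes on the venous list, Ackr1 and Vcam1 were higher and 0 lower. Vcam1 is a poor venous marker here, since its level was higher in arterial-marker cells (206 and 264 CPM) than in venous-marker cells (5.40 and 61.3 CPM).

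Differences between these classes were not tested. Phlda3 was at 22.6 and 115 CPM in arterial-marker cells, 5.28 and 139 CPM in venous-marker cells and 3.61 and 175 CPM in the remaining cells. Mfsd2a was at 862 and 446 CPM in arterial-marker cells, 658 and 221 CPM in venous-marker cells and 889 and 293 CPM in the remaining cells. Arterial-marker cells gave the fewest UMIs, 840797 in WT and 1055724 in KO.

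**Figure D4:**
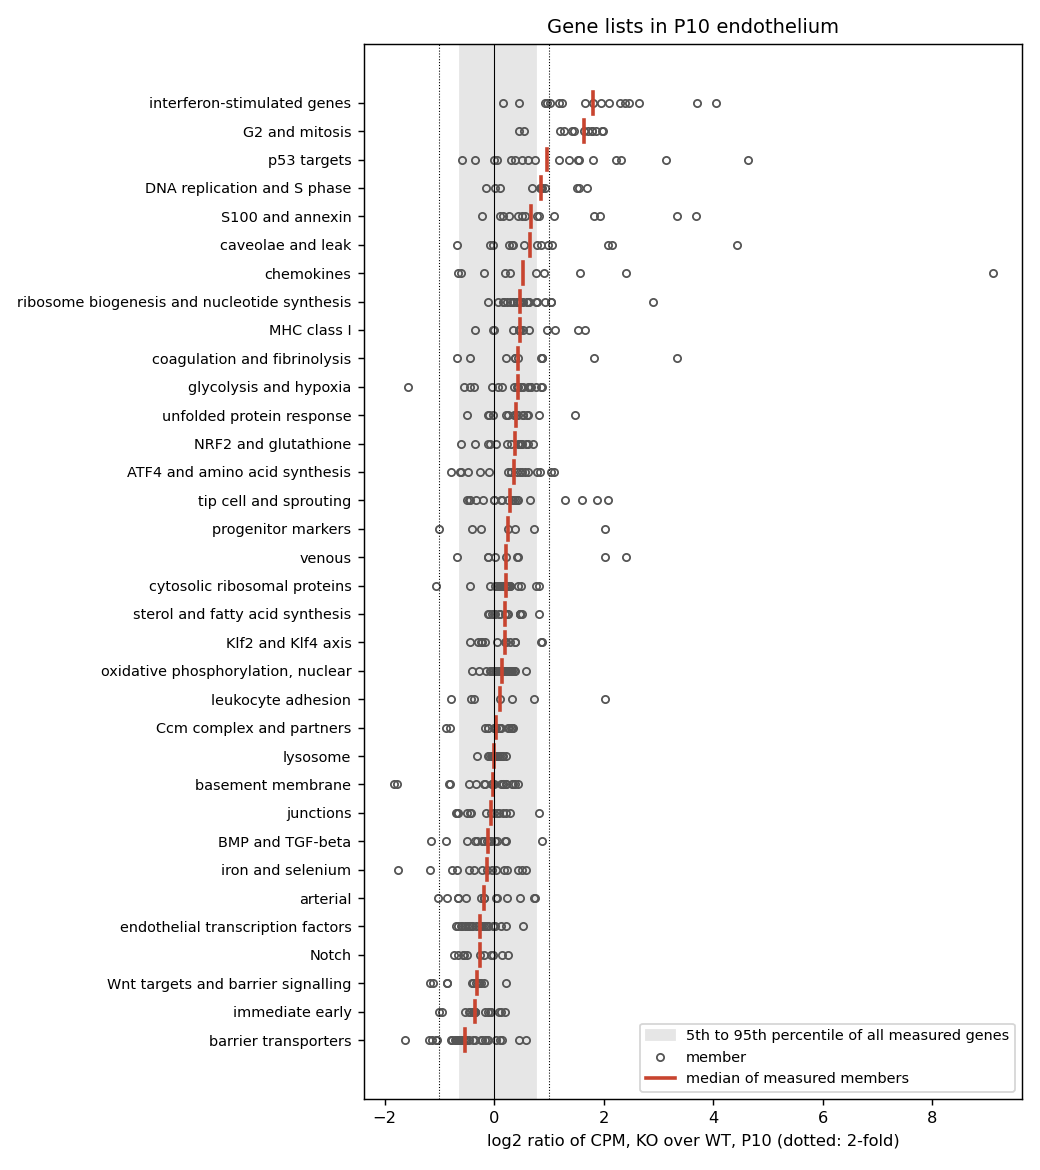
Log2 ratio of KO over WT at P10 for every measured member of 34 gene lists (open circles) with the median of each list (red), the 5th to 95th percentile of all measured genes (grey) and 2-fold (dotted). Interferon-stimulated genes (median 1.81), G2 and mitosis (1.63) and p53 targets (0.96) stand highest, barrier transporters (-0.54) lowest.

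The P6 pair gave a second view from libraries that played no role in choosing the genes. At P6, 153 of 5835 measured genes (2.62%) were at least 2-fold higher in KO and 36 (0.617%) lower. Of the 148 genes higher at P10 that were also measured at P6, 77 (52%) were at least 2-fold higher there and 0 lower, against 2.19% higher among all 5479 genes measured at both ages. Of the 64 genes lower at P10 that were measured at P6, 11 (17.2%) were at least 2-fold lower there and 1 (1.56%) higher, against 0.493% lower among all. The P6 WT library had 11594 Xist UMIs and 0 UMIs of Y-linked genes, while the P6 KO library had 1 and 2. Both P10 libraries carried Y-linked UMIs (3036 and 2807) and almost no Xist (3 and 4). The P6 KO counts match neither pattern, so sex could differ within the P6 pair but cannot be read from them. Since WT at P6 and WT at P10 differ in these markers, age and sex cannot be told apart between them. The part of sex in the P6 values was not tested.

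All 15 of the highest genes had a ratio above 0 at P6, and 14 were at least 2-fold higher; their median log2 ratio was 3.25 at P6 and 3.33 at P10. Phlda3 was at 4.63 and 149 CPM at P6, nearly as at P10. Cdh13 was the exception, at 10.7 and 19.0 CPM. Of the 15 lowest, 12 had a ratio below 0 at P6 and 4 were at least 2-fold lower (Ddc, Hmcn1 and Selenop among them), with a median of -0.37 against -1.71. Ptgds, Alas2, Tmcc3 and Cramp1l are counted among these although they were under the level minimum at P6, as was Cdh13 among the highest. Mfsd2a was at 592 and 456 CPM at P6. Cdkn2b, at 29.4 and 25.2 CPM, and Mfap2, at 20.7 and 22.7 CPM, were near level in the P6 pair. At P10 they stood at 96.5 and 29.5 CPM and at 107 and 31.8 CPM.

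Gene groups differed in how they stood at P6. Interferon-stimulated genes had a larger median log2 ratio at P6, 2.87 with 22 of 24 measured members higher. At P10 it was 1.81 with 13 of 17 higher. The level minimum was applied at each age, so the members measured are not the same, here and in the other lists. Class I MHC did too, with 10 of 16 higher and a median of 1.47, H2-K1 included at a log2 ratio of 2.06. G2 and mitosis genes did not: 0 of 17 passed at P6 and the median was 0.44. Thinned mitotic cells at P6 were 6.51% of WT (5.25 to 7.97) and 8.32% of KO (6.53 to 10.4). Barrier transporters had 0 of 30 past 2-fold at P6 and a median of -0.34. Over all genes measured at P6, 2.62% were higher and 0.617% lower, so these counts of 0 are near the share over all genes. No difference between the ages was tested.

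**Figure D5:**
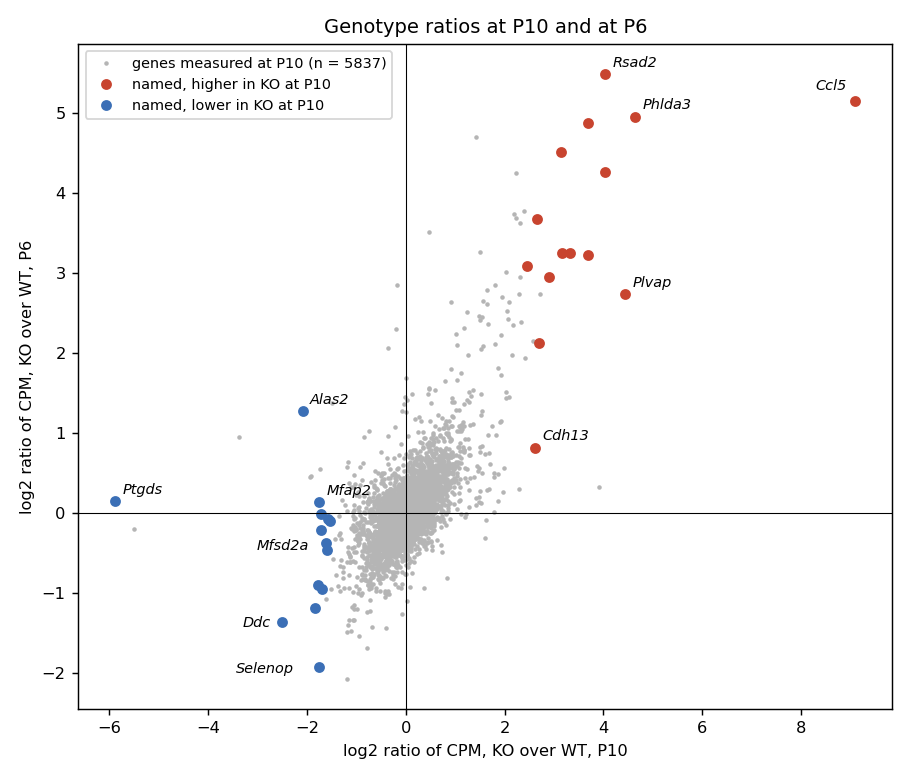
Log2 ratio of KO over WT at P10 (horizontal) and at P6 (vertical) for the 5837 genes measured at P10, with the 15 highest (red) and 14 of the 15 lowest (blue) P10 genes. The red genes lie between 0.81 and 5.48 at P6, and 3 blue genes (Ptgds, Alas2 and Mfap2) lie above 0 there.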

How the data were processed

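The authors deposited, per the file headers, matrices of UMI counts per gene and barcode for each library. These whole-number counts are not normalized and cover 32285 genes, 78 of them sharing a symbol and told apart by identifier. They were made with Cell Ranger 6.0.1 against mm10, per the submitters' processing notes, and a 10x Genomics 3' kit, version 2, was used per the labels' protocols. The sorting gate is not given in the sources used here. Libraries held 21271326 (WT) and 24216567 (KO) UMIs at P10, and 12080868 and 10807651 at P6. The remaining libraries were left out because their harvest day and treatment differ.

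Cells were kept and called endothelial as the report states, and their UMIs were summed per library (numpy 2.4.6, scipy 1.17.1). CPM is the sum per 1000000 endothelial UMIs, log2 ratios add a prior count of 2, and fold changes in plain ratios add none. Intervals are exact (Poisson for CPM, conditional binomial for ratios, Clopper-Pearson for shares). A count of 0 was given a floor of 3 counts. Named genes are the 15 highest and 15 lowest ratios past the level minimum. This ranking skips mitochondrial, ribosomal protein, haemoglobin and sex-linked genes, gene models with no proper name, and genes over 10 times higher in the cells with 0 markers. A gene of the ranking and a list member are not reported here. Members of the 34 lists could be named as well. The members, lists and rules were chosen with earlier results of these data known. Coordinates come from GENCODE vM21, in which 32158 identifiers matched. Thinning drew 2000 UMIs per cell. Scrublet in scanpy 1.11.5 marked 1 WT and 0 KO cells as doublets at its automatic threshold, judged not to have worked. The main values therefore keep all cells, and an alternative drops the highest 119 and 98 scores. The ratio procedure was tested on simulated data. Other alternatives varied the cell rule, the scaling (with edgeR 4.0.16 in R 4.3.3 for TMM factors), the prior count and the level minimum.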

Additional observations from a re-analysis of the deposited data

Results flagged for a closer look

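Both genes here were past 2-fold at P10 and had the opposite sign at P6, and with 1 library per group the difference between the ages was not tested. Pgf, a growth factor gene, had a log2 ratio of KO over WT of 1.59 at P10, from 12.6 CPM (11.2 to 14.3) in WT and 38.3 CPM (35.9 to 40.9) in KO. At P6 it was -0.32, from 24.9 CPM (22.1 to 27.9) and 19.9 CPM (17.2 to 22.9). At P10 the top 1% of KO cells held 52.3% of its UMIs. Slco1a4, an organic anion carrier of the barrier, had a log2 ratio of -1.18 at P10, from 466 CPM (457 to 476) in WT and 205 CPM (199 to 211) in KO. At P6 it was 0.57, from 44.9 CPM (41.1 to 48.9) and 66.6 CPM (61.6 to 71.9).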

How the results depend on the processing

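No paired analysis was possible because each group holds 1 library and no test was run. Over 12 changes of the cell rule, scaling or prior count and 1 added after seeing the data (leaving out cells with a pericyte marker UMI), the genes at least 2-fold higher in KO numbered 130 to 170 and those lower 70 to 95. The lowest counts came without mitotic cells. The share of higher calls ran from 61.8% to 66.4%, against 64.3%. The level minimum moved the counts most: 369 higher and 206 lower at 5 CPM, 63 and 45 at 50 CPM, and 1209 and 1309 with none. With each cell weighted equally the log2 ratio of Pdcd10 was -0.94, and with at least 1 mitotic marker the ratio of mitotic shares was 1.47. Of 420 values of the 30 named genes under other settings, 416 stayed past 2-fold in the same direction. The exceptions were Plvap without Plvap-positive cells (0, by construction), Alas2 without cells holding markers of another type (-0.12), and Ptgds at 5% mitochondrial UMIs at most (-0.64) and without pericyte-marker cells (-0.76). For Alas2 and Ptgds the cause was not tested. Of the other genes with values here, Cav1 and Slc16a1 fell just under 2-fold in 2 settings each, and Ccl2 moved to 6.05 without cells holding markers of another type. Direction was kept in 809 of 812 values of single genes, the other 3 being 0 because the cells holding the gene were left out, and 94 of the 812 moved beyond their counting interval. It was kept in 433 of 442 list medians. The other 9 belong to lists with medians near 0 (Ccm complex, junctions, lysosome and basement membrane) and stayed within 0.06 of 0.

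Depth limits what can be said of scarce genes: most cells held no UMI of a gene near 20 CPM, so a low share of cells can miss expression. Moreover, 1 library stands for each genotype, and animal, sort and library differences cannot be told apart from the genotype.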

Other observations

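Housekeeping groups lay close to the median of all genes at P10. Of 25 measured nuclear genes of oxidative phosphorylation and 18 of the lysosome, 0 passed 2-fold either way, with median log2 ratios of 0.14 and -0.01. The same held for 15 sterol and fatty acid synthesis genes (median 0.19) and 14 NRF2 and glutathione genes (median 0.38). With 4.27% of all measured genes past 2-fold, these counts of 0 are near the share over all genes. Ribosome biogenesis and nucleotide synthesis genes had ratios above 0 in 22 of 23 cases: the median was 0.48 and 3 passed 2-fold (Upp1, Mthfd2 and Eif4ebp1). The nucleolar gene Npm1 was at 595 and 915 CPM. The serine and amino acid synthesis list had 2 of 18 past 2-fold, Asns at 15.6 and 33.2 CPM and Mthfd2 at 9.69 and 20.02 CPM. Of 15 unfolded protein response genes, Sdf2l1 passed, at 10.2 and 28.4 CPM. Coagulation genes had 2 of 11 past 2-fold, both named above (Anxa2 and S100a10), and thrombomodulin (Thbd) was at 48.3 and 86.9 CPM. Of 16 BMP and TGF-beta genes, Tgfb2 was lower at 72.5 and 32.7 CPM.

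Immediate early genes, which respond to cell handling as well as to signals, had 1 of 17 past 2-fold, near the 4.27% over all genes. It was Egr2, at 32.0 and 15.9 CPM. The immediate early genes had a median log2 ratio of -0.36. Their part in other results was not tested. Among 26 ribosomal protein genes the median was 0.21, but Rps29 was at 5429 CPM in WT and 2603 CPM in KO. Its log2 ratio was 0.01 at P6. A pair of unnamed gene models left out of the ranking behaved alike in being apart at P10 only: Gm10260 was at 251 and 5.51 CPM and Gm8797 at 22.4 and 338 CPM, with log2 ratios of -0.20 and 0.33 at P6. They were singled out after their values were seen, and reads of near-identical copies could be split between them and other genes.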
